A study of Mus musculus with 15 samples.

Results

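Epithelial cells of the mouse small intestine after 3 days of RANKL were compared with epithelial cells of untreated mice. The comparison uses 6 of the series' 15 Affymetrix arrays, namely the 3 labelled as RANKL day 3 and the 3 labelled as control, and it covers all 19938 genes that a probe set names. Both groups came from Wild-type BALB/c mice of 10 weeks, and in both the epithelium was detached with 30 mM EDTA for 10 min. The day 3 mice had received intraperitoneal GST-RANKL fusion protein, 2 injections per day, and the controls no agent. The 15 samples include no mice injected with vehicle or with GST by itself, and so RANKL, GST and the injections cannot be told apart as sources of a change. The other 9 arrays, 3 for each of RANKL days 1, 2 and 4, helped to estimate the spread and are used in 2 further comparisons. It is not stated that the 3 arrays in each group represent different animals. The p-values therefore describe only how far these arrays spread, which may be technical. In bulk RNA, fewer cells of a type and less RNA per cell cannot be told apart.

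RANKL is a TNF-family cytokine made by stromal cells beneath the follicle-associated epithelium. It binds the receptor RANK on epithelial cells and signals through TRAF adaptors to the canonical and noncanonical branches of NF-kB. In the intestine this signal is known for driving enterocyte precursors to become M cells, which carry particles and microbes from the lumen to the lymphoid tissue below. The Ets factor Spi-B is needed for M cells to mature, and glycoprotein 2 on their apical surface is an uptake receptor for bacteria.

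The 12 epithelial markers checked, among them Epcam, Vil1 and Cdx2, averaged 11.99 to 12.09 on the log2 intensity scale on the control arrays and 11.92 to 12.07 on the day 3 arrays, and none changed, which fits the label. Median intensity was 149 to 151 on the day 3 arrays and 150 to 153 on the control arrays. On the first principal component, which held 23.3% of the variance, the day 3 arrays lay between -15.5 and -6.5 and the control arrays between 7.6 and 17.2. The array farthest from its own group was RANKL day 1 replicate 2 (root mean square deviation 0.221, against 0.10 to 0.155 on the 6 arrays compared here).

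Of the 19938 genes, 590 (2.96%) were called at an adjusted p under 0.05 (limma, Benjamini-Hochberg adjustment), 342 higher (1.72%) and 248 lower (1.24%) after 3 days of RANKL. A change of 1 or more on the log2 scale was found in 71 of the genes that rose and 23 of those that fell. The median size was 0.61 for a rise and 0.55 for a fall. The genes that rose were read at a median of 8.19 in controls and the genes that fell at 9.61, against 7.32 for all genes. The number of calls depended on single arrays. It was 316 without day 3 replicate 2, 236 without day 3 replicate 3, 385, 355 and 270 without control replicates 1, 2 and 3, and 1188 without day 1 replicate 2, which enters only through the shared spread. Of the 24 other settings tried, 168 genes, 114 higher and 54 lower, were called in every one that tested them. Beside a named gene that lost its call without an array, the limma adjusted p without that array stands in parentheses. Genes named only in runs of neighbours are the exception. Calls lost or gained under another scaling or fit are not all listed. The counts of called list members below stand against 1.72% higher and 1.24% lower among all genes.

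**Figure D1:**
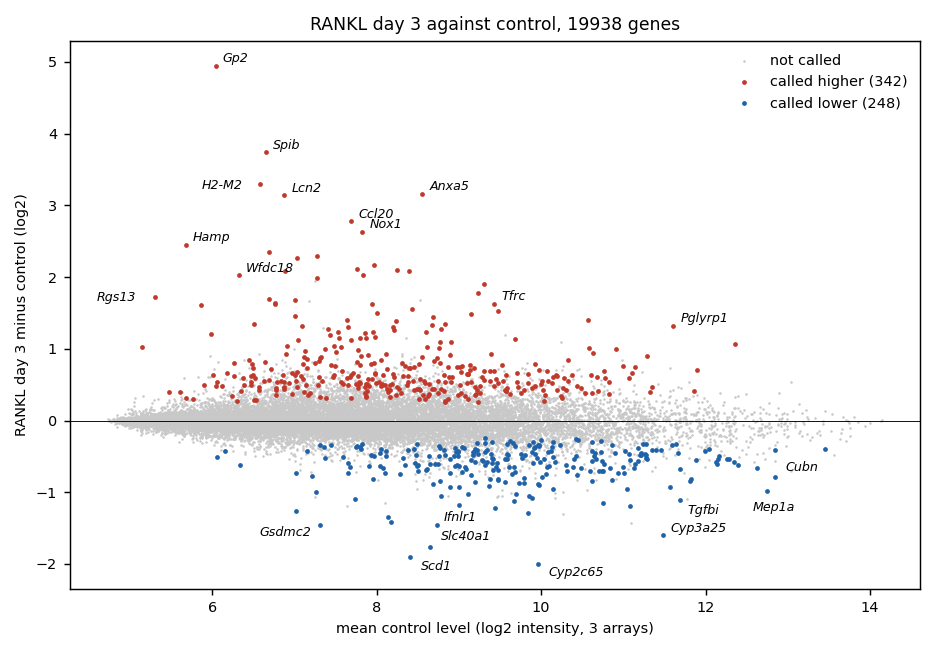
Change of each of 19938 genes after 3 days of RANKL (log2, vertical) against its mean control level (log2 intensity, 3 arrays, horizontal). Red points are the 342 genes called higher and blue points the 248 called lower. Gp2 and Spib, the largest rises at 4.95 and 3.74, started from control levels below 7, while Mep1a fell by 0.99 from a control level of 12.52 to 12.93.

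M cell genes gave the largest share of rises of any list described here. Of 38 measured genes, 27 rose and none fell, with a median change of 1.25 on the log2 scale against -0.01 for all genes. On the day 3 arrays the list averaged 9.29 to 9.42, above the 7.99 to 8.02 of every control array. Leaving out any 1 of the 6 arrays gave 25 to 28 rises. Some of these genes became M cell markers through RANKL-treated epithelium, possibly through these very samples, so the list is not independent evidence of its direction.

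Among the 5 M cell transcription factors 2 rose. Spib, which encodes Spi-B, read 6.50, 6.81 and 6.63 on control replicates 1, 2 and 3 and 10.18, 10.60 and 10.39 on day 3 replicates 1, 2 and 3. The day 3 arrays all lay far above the controls, and the change was 3.74 ± 0.20 (SE, n = 3 arrays per group; 13.4-fold; adjusted p = 1.02e-06, limma). Sox8, an SRY-box factor that acts with Spi-B on Gp2, read 7.23, 7.11 and 7.39 in controls and 8.0, 8.05 and 8.11 on day 3. Its groups did not overlap and it rose by 0.81 ± 0.10 (adjusted p = 0.000431). The nuclear receptor gene Esrrg was higher on all 3 day 3 arrays, at 0.41, but was not called (adjusted p = 0.0899). Atoh8, a repressor of M cell numbers, and Runx1 overlapped between the groups, at 0.01 and -0.03.

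Of 9 uptake receptors and surface proteins of M cells, 7 rose. Gp2 read 5.94, 5.95 and 6.22 in controls and 10.12, 11.49 and 11.36 on day 3. Day 3 replicate 1 was the lowest of the treated arrays and still stood well above every control. The difference, 4.95 ± 0.34 (30.9-fold; adjusted p = 7.43e-06, limma), was the largest of all genes. Anxa5, which encodes a phosphatidylserine-binding annexin, went from 8.59, 8.71 and 8.35 to 11.29, 12.07 and 11.78, a rise of 3.16 ± 0.20. The lowest day 3 array exceeded the highest control by a wide margin. The chaperone gene Clu rose by 1.4, the prion protein gene Prnp by 1.34 ± 0.18, the hyaluronan receptor gene Cd44 by 1.23, Scg5 by 1.12 and Marcksl1 by 1.01 ± 0.17. Cd44 is also a crypt marker and Scg5 an endocrine granule gene. Aif1 overlapped between the groups (0.36, adjusted p = 0.15). Tnfrsf11a, which encodes RANK itself, read 9.59, 9.54 and 9.53 in controls and 9.71, 10.00 and 10.21 on day 3. The groups did not overlap, but the change of 0.42 missed the threshold (adjusted p = 0.0532), and it passed with the replicate number as a block (0.0466), without day 3 replicate 1 (0.00832) and without day 1 replicate 2 (0.0318).

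Genes of M cell membranes and vesicles rose in 7 of 9. Nox1 and Ncf4, both among the 7, are described with the NADPH oxidases. Mfge8, a secreted bridge between phosphatidylserine and integrins, read 7.91, 8.04 and 7.96 in controls and 9.76, 10.36 and 10.32 on day 3 (2.17 ± 0.21; adjusted p = 4.6e-05, limma). The lysosomal protease gene Ctsh went from 7.81, 7.71 and 7.75 to 9.72, 9.98 and 9.92, a 4.34-fold rise. It was the only 1 of 19 cathepsin and lysosomal genes to change. Tnfaip2, a gene linked to membrane protrusions, read 7.11, 6.59 and 6.96 in controls and 8.72, 9.01 and 9.19 on day 3, a rise of 2.08 ± 0.22. Rab32, a small GTPase of lysosome-related vesicles, rose by 0.87, a call that did not hold without day 3 replicate 3 (0.0805) or control replicate 2 (0.0654). The gap junction gene Gjb2 rose by 0.75 (adjusted p = 0.0379). That call ended without day 3 replicates 2 (0.121) or 3 (0.166), without any 1 control array (0.0944 to 0.104), and without day 1 replicate 3 (0.0524), day 2 replicate 1 (0.0545) or day 4 replicate 1 (0.0527). Cadm1 (0.03) and Tjp1 (-0.08) overlapped.

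All 4 M cell chemokines rose, and they were the only risers among 26 chemokine genes. Ccl20, the ligand that draws CCR6-bearing lymphocytes and dendritic cells, read 7.45, 8.04 and 7.57 in controls and 10.22, 10.56 and 10.61 on day 3, a rise of 2.78 ± 0.20 (6.87-fold; adjusted p = 9.21e-06, limma). Ccl9 went from 8.70, 8.26 and 8.23 to 10.33, 10.67 and 10.47 (2.09 ± 0.17). Ccl6, a neighbour of Ccl9 in the same chemokine cluster, was already read at 11.13, 11.18 and 11.11 in controls and rose to 11.82, 11.91 and 11.93, a smaller change of 0.75 ± 0.09. Cxcl16, a membrane-bound chemokine and scavenger receptor, rose by 1.26. None of 9 interferon-induced chemokines and none of 8 homeostatic and mucosal chemokines was called, with median changes of 0.02 and -0.11. The 4 rises remained called when any 1 of the 6 arrays was left out.

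Of the other 11 genes on the M cell list 7 rose. Wfdc17, which is among the 7, is described with Wfdc18. H2-M2, a nonclassical MHC class I gene, read 6.39, 7.03 and 6.31 in controls and 10.03, 10.29 and 9.31 on day 3 (3.30 ± 0.27). It was the only riser among 17 antigen presentation genes, whose median was -0.13. Itih5, which encodes an inter-alpha-trypsin inhibitor heavy chain, read 6.63 to 6.72 in controls and 8.95 to 9.19 on day 3, a 5.09-fold rise. Pglyrp1, a secreted peptidoglycan recognition protein that kills bacteria, rose by 1.32 ± 0.09 from a level that was already high, 11.51 to 11.75 in controls and 12.83 to 12.99 on day 3. Fabp5, an epidermal type of fatty acid binding protein, rose by 1.98, and a second probe set of the gene gave 1.83. The adhesion receptor gene Adgrd1 rose by 1.53 and the protease inhibitor gene Serpinb6a by 0.47 (adjusted p = 0.0514 with only these 2 groups fitted). Serpinb1a (0.22), Arsi (0.10), Kcne4 (-0.07) and Jph1 (-0.11) were not called.

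**Figure D2:**
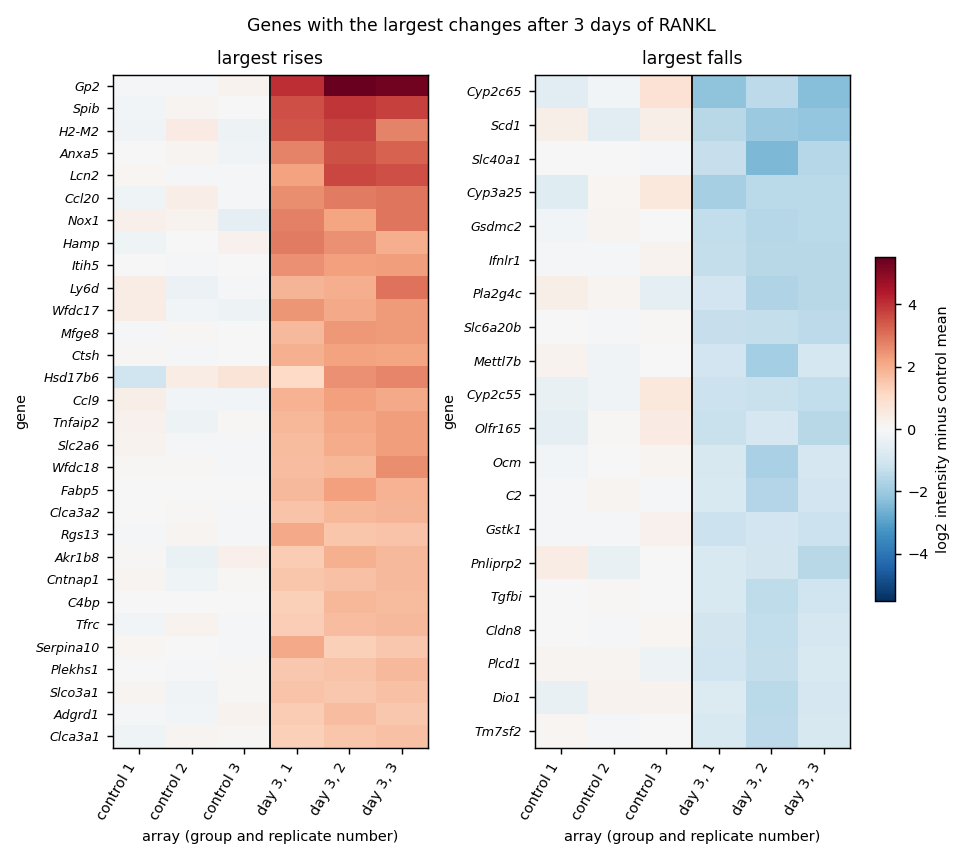
Level on each of the 6 arrays minus the gene's control mean (log2, colour) for the 30 largest rises and the 20 largest falls, 1 gene per line and 1 array per column. The 3 day 3 arrays stand on 1 side of the 3 controls in every line, and the spread among controls is widest for Cyp2c65, Cyp3a25 and Hsd17b6.

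Fewer genes of the NF-kB pathway changed than of the M cell list. Of 33, 6 rose and none fell, with a median of 0.13, and the count was 4 when day 3 replicate 3 or either of control replicates 1 and 2 was left out. Among 10 genes of RANK signalling only Tnfrsf11b was called. It encodes osteoprotegerin, the decoy receptor of RANKL, and read 7.54, 7.25 and 7.34 in controls and 8.09, 8.22 and 8.80 on day 3, a rise of 1.00 ± 0.18 (adjusted p = 0.00806, limma). Day 3 replicate 3 was the highest, and the groups did not overlap. Traf6 (0.25), Traf2 (0.23), Traf5 (-0.03), Map3k14 (0.27) and the ligand gene Tnfsf11 (-0.27) were not called.

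Among the NF-kB subunits Nfkb2, the precursor of p52, rose by 0.80 ± 0.08, from 8.89, 8.59 and 8.81 to 9.61, 9.52 and 9.55. Its partner gene Relb was slightly lower on average (-0.13, adjusted p = 0.437) with overlapping groups, and Rela (0.13) and Rel (-0.16) overlapped too. Of 8 inhibitors of the pathway, Nfkbia, which encodes the inhibitor IkB-alpha, read 10.05, 10.10 and 10.29 in controls and 11.03, 10.58 and 10.65 on day 3. It rose by 0.61 ± 0.13, a call that did not hold without day 3 replicates 1 (0.0846) or 3 (0.0648), without control replicates 1 (0.0925) or 2 (0.084), and with only these 2 groups fitted (0.0564). Nfkbie rose by 0.31 with an adjusted p of 0.049, and this call ended in 19 of 24 settings, among them the replicate block (0.0578), every leave-out of a day 3 array (0.113 to 0.133) and the leave-outs of control replicates 1 (0.141) and 2 (0.149). Its call also ended without day 1 replicates 1 (0.0523) or 3 (0.0637), day 2 replicates 1 (0.0647) or 2 (0.0681), or any 1 RANKL day 4 array (0.0554 to 0.0729). Tnfaip3, which encodes the ubiquitin editor A20, was higher on all 3 day 3 arrays but not called (0.41, adjusted p = 0.152).

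Of 11 NF-kB target genes only Ccl20 and Icam1 rose. Icam1, an adhesion molecule for leukocyte integrins, read 7.72, 7.88 and 7.78 in controls and 8.84, 8.91 and 9.07 on day 3, a 2.22-fold rise. Birc3 (0.36), Traf1 (0.04) and Bcl3 (0.15) overlapped between the groups. Tnf read 7.29, 7.06 and 6.95 in controls and 8.57, 7.23 and 7.90 on day 3. Its groups overlapped through day 3 replicate 2 (0.80, adjusted p = 0.121), and it passed with the replicate block (0.0479) and without day 3 replicate 2 (0.0174). In the TNF superfamily, 2 of 24 genes rose (4 rose and 1 fell with the replicate block), Tnfrsf11b and Tnfrsf1b, a TNF receptor gene (0.50 ± 0.11). The latter call ended without day 3 replicates 1 (0.0771) or 3 (0.109) or control replicates 2 (0.0707) or 3 (0.104). None of 16 RANKL target genes known from osteoclasts was called. Among them were Nfatc1 (0.08), Ctsk (-0.09), Acp5 (-0.33) and Mmp9 (0.26), and the list's median was -0.04.

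The promoters of the genes that rose were searched for the 10-base kappa-B motif, spelled GGGA, any 2 bases and TTCC, on both strands of the 250 bases before each start site. RefSeq sequence of build GRCm38.p6 was used, which differs from the mm9 build named by the submitters. The motif was present in 12 of 342 promoters of genes that rose (3.51%), in 3 of 262 promoters of genes that fell (1.15%) and in 1.16% of 19177 promoters of all measured genes. These promoters belong to 275 of the genes that rose, 188 of those that fell and 15614 of all measured genes. A gene with several promoters counts once for each, so the 12 matches come from fewer genes. Among genes that rose by 1 or more the kappa-B motif was present in 5 of 66 promoters (7.58%), which belong to 54 genes. The other 3 motifs searched were also more frequent there than in all promoters: the Ets core in 42.4%, the AP-1 motif in 12.1% and the interferon element in 6.06%. The Ets core AGGAAG was present in 25.4%, 27.1% and 28.4% of the promoters of genes that rose, genes that fell and all genes, the AP-1 motif TGANTCA in 6.14%, 7.63% and 6.04%, and the interferon element, spelled GAAA, any 2 bases and GAAA, in 2.34%, 0.763% and 2.86%. A gene can have several promoters, related genes can share sequence, and a match is only a match of letters. The following 3 promoters, chosen after the matches were seen, belong to genes that rose and hold the motif, which is given in capitals. Nfkbia lies at chr12:55492648-55492897 on the minus strand, Pglyrp1 at chr7:18884440-18884689 on the plus strand and Rgs13 at chr1:144177373-144177622 on the minus strand. Each is printed 5′ to 3′ on the gene's strand.
Nfkbia: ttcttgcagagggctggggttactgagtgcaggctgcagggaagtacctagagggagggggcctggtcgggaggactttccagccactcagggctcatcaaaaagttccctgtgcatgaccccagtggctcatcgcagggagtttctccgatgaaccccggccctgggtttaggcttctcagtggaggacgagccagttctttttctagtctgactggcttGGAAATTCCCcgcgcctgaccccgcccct
Pglyrp1: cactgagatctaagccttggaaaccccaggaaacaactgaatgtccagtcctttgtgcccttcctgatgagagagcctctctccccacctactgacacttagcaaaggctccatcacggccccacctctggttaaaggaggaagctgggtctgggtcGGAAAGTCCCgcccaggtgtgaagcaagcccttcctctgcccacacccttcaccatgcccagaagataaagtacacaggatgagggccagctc
Rgs13: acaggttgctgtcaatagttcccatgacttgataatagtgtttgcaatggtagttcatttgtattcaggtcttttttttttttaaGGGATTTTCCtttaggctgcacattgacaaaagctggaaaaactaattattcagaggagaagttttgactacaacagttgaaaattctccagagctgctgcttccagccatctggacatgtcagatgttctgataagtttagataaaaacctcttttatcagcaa
The motif began 29 bases before the start site of Nfkbia, 93 bases before that of Pglyrp1 and 165 bases before that of Rgs13. Nfkb2, which also rose, was the only NF-kB subunit gene called and held the motif too.

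Subunits of the NADPH oxidases, enzymes that make superoxide or hydrogen peroxide, rose in 5 of 12 measured genes, with none lower and a median of 0.50. Nox1, the catalytic subunit of the colonic and intestinal epithelium, read 8.12, 8.0 and 7.34 in controls and 10.58, 10.01 and 10.76 on day 3, a rise of 2.63 ± 0.24 (6.19-fold; adjusted p = 3.02e-05, limma). Control replicate 3 was the lowest array, and the lowest day 3 array still exceeded the highest control. Cyba, the membrane partner p22phox, rose from 11.01, 10.90 and 10.83 to 12.07, 11.62 and 12.03 (0.99 ± 0.12).

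The cytosolic subunit gene Ncf4 rose by 1.46, from 6.85 to 7.28 in controls to 8.26 to 8.77 on day 3, and the GTPase gene Rac2 by 1.35. Ncf1 rose by 0.39, but this call ended when any 1 of the 6 arrays was left out (0.0515 to 0.103). Noxo1 and Noxa1, the usual epithelial organizer and activator of Nox1, overlapped between groups at 0.32 and 0.25. Rac1 (0.18) and Nox4 (-0.05) overlapped too. The dual oxidase genes Duox2 (0.48) and Duoxa2 (0.76) were high on day 3 replicates 1 and 3 and within the control range on replicate 2, and neither was called. Cybb, the phagocyte subunit, was 0.52 higher (adjusted p = 0.0874). The 19 myeloid and dendritic cell markers, which could bring phagocyte oxidase RNA, averaged 7.44 to 7.64 in controls and 7.57 to 7.86 on day 3, and none was called (median 0.16, 16 of 19 above 0). Their part in these rises was not tested.

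Among 19 iron genes 3 rose (15.8%, against 1.72% of all genes) and 1 fell (5.26%, against 1.24%). Hamp, which encodes hepcidin, the hormone that removes ferroportin from cell membranes, read 5.43, 5.70 and 5.90 in controls and 8.54, 8.19 and 7.65 on day 3. The groups were far apart, and the change was 2.45 ± 0.20 (5.46-fold; adjusted p = 1.76e-05, limma). Probe sets of 5 Y-linked genes read 4.88 to 5.5 over the 15 arrays and give an idea of the lowest readings, so the control level of Hamp lay near this floor and its fold may be understated. The floor differs between probe sets, since that of Sry, a Y-linked gene left out of the 5, read 7.85 to 8.79. The neighbouring paralog Hamp2 did not follow, at 7.39, 6.88 and 6.98 in controls and 6.92, 7.06 and 7.0 on day 3 (-0.09).

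Tfrc, which encodes the transferrin receptor for iron uptake, read 9.29, 9.63 and 9.35 in controls and 10.79, 11.14 and 11.22 on day 3, a rise of 1.63 ± 0.20 (3.09-fold; adjusted p = 0.0004). Bmp6, a ligand that induces hepcidin in the liver, rose by 0.75, from 7.38 to 7.64 in controls to 8.19 to 8.31 on day 3. Slc40a1, which encodes ferroportin, the basolateral iron exporter, read 8.67, 8.68 and 8.60 in controls and 7.4, 6.18 and 7.07 on day 3.

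The controls were tight and the day 3 arrays spread widely, and Slc40a1 fell by 1.77 ± 0.37 (adjusted p = 0.0215). The call ended without day 3 replicates 2 (0.086) or 3 (0.0641) or without any 1 control array (0.0641 to 0.0701). The iron importer gene Slc11a2 (0.18), the ferrireductase gene Cybrd1 (-0.06), the ferroxidase gene Heph (0.10) and the ferritin genes Fth1 (0.05) and Ftl1 (0.18) were not called.

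Lcn2, Hamp and Pglyrp1 were the 3 risers in a list of 20 genes of antimicrobial defence and the acute phase. Lcn2, which encodes the siderophore-binding lipocalin 2, read 7.0, 6.81 and 6.82 in controls and 9.09, 10.55 and 10.40 on day 3, a rise of 3.14 ± 0.38 (8.81-fold; adjusted p = 0.0004, limma). Day 3 replicate 1 was lower than the other two, as it was for Gp2. Saa3 was higher on all 3 day 3 arrays (0.99, adjusted p = 0.0793), and Saa1 ranged from 7.57 to 8.73 in controls and from 7.76 to 9.63 on day 3. The Reg lectins Reg3b and Reg3g were read at 13.50 to 13.82 in both groups, with changes of -0.01 and 0.09, and none of the 7 Reg genes was called.

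The whey acidic protein genes Wfdc17 and Wfdc18, neighbours on chromosome 11 that encode small secreted protease inhibitors, rose together. Wfdc17 read 7.43, 6.90 and 6.76 in controls and 9.45, 9.10 and 9.36 on day 3 (2.27 ± 0.29), and Wfdc18 went from 6.39, 6.37 and 6.21 to 8.0, 8.16 and 8.87 (2.02 ± 0.18). The Clca genes Clca3a1 and Clca3a2, members of a family of secreted calcium-activated chloride channel regulators, rose by 1.49 ± 0.13 and 1.77 ± 0.12. Their neighbour Clca3b, chosen after its values were seen, rose by 1.07 from 12.26 to 12.46 in controls. These genes are close paralogs, and probes may read more than 1 of them, whereas the goblet cell gene Clca1 was not called (-0.15).

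Surface proteins on another list of 25 adhesion genes rose in 5. Ly6d, a GPI-anchored protein, read 7.69, 6.97 and 7.15 in controls and 9.13, 9.28 and 10.26 on day 3 (2.29 ± 0.32; adjusted p = 0.00135, limma), with day 3 replicate 3 highest. Its relative Ly6e rose by 1.49, and the tetraspanin gene Cd81 by 0.59 from 11.02 to 11.11. The glucose transporter family members Slc2a6, found in lysosomal membranes, and Slc2a1, the basolateral and general glucose carrier, rose by 2.03 ± 0.17 and 0.65, and no other gene of 18 in sugar and monocarboxylate transport was called. Slc5a4a of that list changed by -1.97 to -1.38 over the 24 other settings. It was called lower in 7 of them, among them only these 2 groups fitted (limma adjusted p = 0.0397). Among 12 annexins Anxa5 was joined by the gut annexin gene Anxa13 (0.69), a call that did not hold without day 3 replicates 2 (0.0779) or 3 (0.0616), without control replicate 1 (0.0706) and with only these 2 groups fitted (0.0847).

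Further large rises fell outside these groups. Serpina10, the inhibitor of coagulation factors X and XI, read 7.88 to 8.03 in controls and 9.24 to 10.03 on day 3 (1.62 ± 0.21). C4bp, which encodes a complement C4b-binding protein, rose by 1.63, the cell-surface gene Cntnap1 by 1.64, the organic anion transporter gene Slco3a1 by 1.55 and Plekhs1 by 1.62 from a control level of 5.80 to 5.91, near the floor. Hsd17b6, a retinol and sterol dehydrogenase gene, rose by 2.10 ± 0.43, but its controls ranged from 7.15 to 8.94 and its day 3 arrays from 9.32 to 10.95. That call ended without day 3 replicates 2 (0.0752) or 3 (0.0966) and with only these 2 groups fitted (0.0965). The aldo-keto reductase gene Akr1b8 rose by 1.70 ± 0.36, a call that did not hold without day 3 replicates 2 (0.0829) or 3 (0.0884) or control replicates 1 (0.0559) or 2 (0.0836). The paired genes Tmem176a and Tmem176b, chosen after their values were seen, rose by 1.45 and 1.4.

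Tuft cells, the chemosensory cells that detect luminal metabolites, were represented by 24 genes, of which 6 rose and none fell (median 0.16). Rgs13, a brake on G protein signalling, read 5.25, 5.46 and 5.19 in controls, within the floor given above, and 7.37, 6.82 and 6.87 on day 3, a rise of 1.72 ± 0.16 (3.30-fold; adjusted p = 3.86e-05, limma) that may be understated. The kinase gene Dclk1 read 6.73, 6.64 and 6.68 in controls and 7.46, 7.17 and 7.13 on day 3 (0.57 ± 0.09), and Plcg2, a phospholipase that is also present in lymphocytes, rose by 0.45. The groups did not overlap for any of these. Trpm5, the taste cation channel gene, rose by 0.88 (7.25 to 7.45 in controls, 8.02 to 8.59 on day 3). Its call ended without day 3 replicate 3 (0.0923) or control replicates 1 (0.0674) or 2 (0.0662).

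The prostaglandin D synthase gene Hpgds rose by 0.54 and the leukotriene gene Alox5ap by 0.43. The call of Hpgds ended without any 1 day 3 array (0.0563 to 0.0643) or without control replicate 1 (0.0557), and that of Alox5ap without day 3 replicates 1 (0.113) or 3 (0.0805), control replicates 2 (0.12) or 3 (0.0724), day 2 replicates 1 (0.0527) or 2 (0.0525) or day 4 replicate 1 (0.0527). The count of tuft rises was 3 without day 3 replicate 3 and 4 without day 3 replicate 1 or control replicate 2. The master factor gene Pou2f3 was higher on all 3 day 3 arrays (0.47, adjusted p = 0.0622; 0.0467 with the replicate block, 0.0408 without control replicate 1 and 0.0308 without day 1 replicate 2), and the cytokine gene Il25 was not (-0.05). Kit, counted here with 8 mast cell genes, rose by 0.61, and no other gene of that list was called. That call ended without day 3 replicates 1 (0.124) or 3 (0.152), without any 1 control array (0.062 to 0.134), and without day 1 replicate 3 (0.0516), day 2 replicate 2 (0.0536) or any 1 RANKL day 4 array (0.0502 to 0.0553).

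Of 28 enteroendocrine genes, 3 rose (10.7%, against 1.72% of all genes) and none fell (median 0.16). Rfx6, a factor of endocrine progenitors, read 6.38, 6.59 and 6.50 in controls and 7.08, 7.19 and 7.38 on day 3, a rise of 0.73 ± 0.13 (adjusted p = 0.00703, limma). The hormone gene Cck rose by 0.67, a call that did not hold without day 3 replicates 2 (0.0531) or 3 (0.0954) or control replicates 2 (0.0747) or 3 (0.0542). The third, Scg5, is also on the M cell list. The endocrine fate factor Neurog3 (0.52, adjusted p = 0.0519) and the proglucagon gene Gcg (0.62, adjusted p = 0.0956; 0.0477 with the replicate block and 0.0314 without day 1 replicate 2) were higher on all 3 day 3 arrays without being called, and Chga was not (0.21, adjusted p = 0.432).

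Genes of the other secretory lineages gave few calls. Among 16 goblet cell genes Ccl6 rose and Fer1l6 fell (-0.62), the latter call ending without day 3 replicates 2 (0.0815) or 3 (0.0828) or without any 1 control array (0.0526 to 0.0883). In each direction this was 6.25% of the list, against 1.72% of all genes higher and 1.24% lower. The mucin gene Muc2 was read at 13.73 to 13.78 in controls and 13.37 to 13.65 on day 3 (-0.22, adjusted p = 0.166), and Tff3 (-0.12) and Agr2 (0.18) overlapped. No Paneth cell gene of 7 was called. Lysozyme, Lyz1, was slightly lower on every day 3 array (-0.29, adjusted p = 0.18) and the defensin-processing protease gene Mmp7 higher on every one (0.67, adjusted p = 0.075).

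Crypt stem cell markers lay mostly above 0, and few were called. Of 22 genes, 4 rose and none fell, the median was 0.36, and 19 lay above 0, against 46.8% of all genes. Aqp4, a water channel of crypt base cells, read 7.37, 7.4 and 7.45 in controls and 8.41, 8.69 and 8.97 on day 3 (1.28 ± 0.12; adjusted p = 3.48e-05, limma). Cd44 was described with the M cell genes. The RNA-binding protein gene Msi1 rose by 0.83, a call that did not hold without day 3 replicate 3 (0.0608). Mex3a rose by 0.45, a call that did not hold without day 3 replicates 1 (0.0835) or 3 (0.152) or control replicates 1 (0.11) or 2 (0.0875). The count of stem cell rises was 2 without day 3 replicate 3, 5 with the replicate block and 6 with only these 2 groups fitted. Lgr5, the defining receptor of these cells, overlapped between groups, at 8.41, 8.08 and 7.90 in controls and 8.48, 7.97 and 8.49 on day 3 (0.18). Olfm4 (0.73, adjusted p = 0.107), Ascl2 (0.51), Smoc2 (0.60) and Sox9 (0.59) were higher on all 3 day 3 arrays without being called. Olfm4 and Smoc2 passed with only these 2 groups fitted (limma adjusted p = 0.00863 and 0.0276). Both also passed without day 2 replicate 3 (0.000271 and 0.00568), as did Ascl2 (0.0238).

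Cell cycle genes had a similar pattern, with 2 of 43 called, both higher, and a median of 0.34. In this list 24 genes read higher on all 3 day 3 arrays than on every control, whereas 12.3% of all genes did. Mki67, the proliferation marker, read 9.82, 9.82 and 9.67 in controls and 10.13, 10.57 and 10.82 on day 3 (0.74, adjusted p = 0.136), and Top2a was 0.74 higher (adjusted p = 0.0917). Called were the replication genes Mcm2 (0.46) and Rrm2 (0.41). The call of Mcm2 ended without day 3 replicates 1 (0.0819) or 3 (0.0789) or any 1 control array (0.064 to 0.0873), and that of Rrm2 without day 3 replicate 3 (0.117) or any 1 control array (0.0605 to 0.071). No gene of the list was called without day 3 replicate 3 or without any 1 control array, 1 was without day 3 replicate 1, 7 were called with only these 2 groups fitted and 4 with the replicate block. Cdk4 (0.59, adjusted p = 0.0571) passed with the replicate block (0.037).

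The Notch ligand gene Dll1 (0.65) and the Notch effector gene Rbpj (0.33), 2 of 14 Notch and fate genes, were called higher near the threshold. Dll1 was not called with the replicate block (0.0578), without any 1 of the 6 arrays (0.0528 to 0.143), without day 2 replicate 2 (0.0604) or without day 4 replicate 1 (0.0609). Rbpj was not called without day 3 replicates 2 (0.166) or 3 (0.174), without any 1 control array (0.0739 to 0.152), without day 1 replicate 3 (0.0569), or without any 1 array of RANKL day 2 (0.0583 to 0.0623) or day 4 (0.0648 to 0.0718). Among 22 endoplasmic reticulum genes the protein disulfide isomerase genes Pdia4 (0.63) and Pdia6 (0.56) rose. The call of Pdia4 ended without day 3 replicate 3 (0.0678) and when its 2 probe sets were averaged (0.0591), and that of Pdia6 with the replicate block (0.0586), without day 3 replicates 1 (0.0584) or 3 (0.176), without any 1 control array (0.0633 to 0.131), and without day 1 replicate 3 (0.0524), day 2 replicate 2 (0.0583) or day 4 replicate 1 (0.0597).

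**Figure D3:**
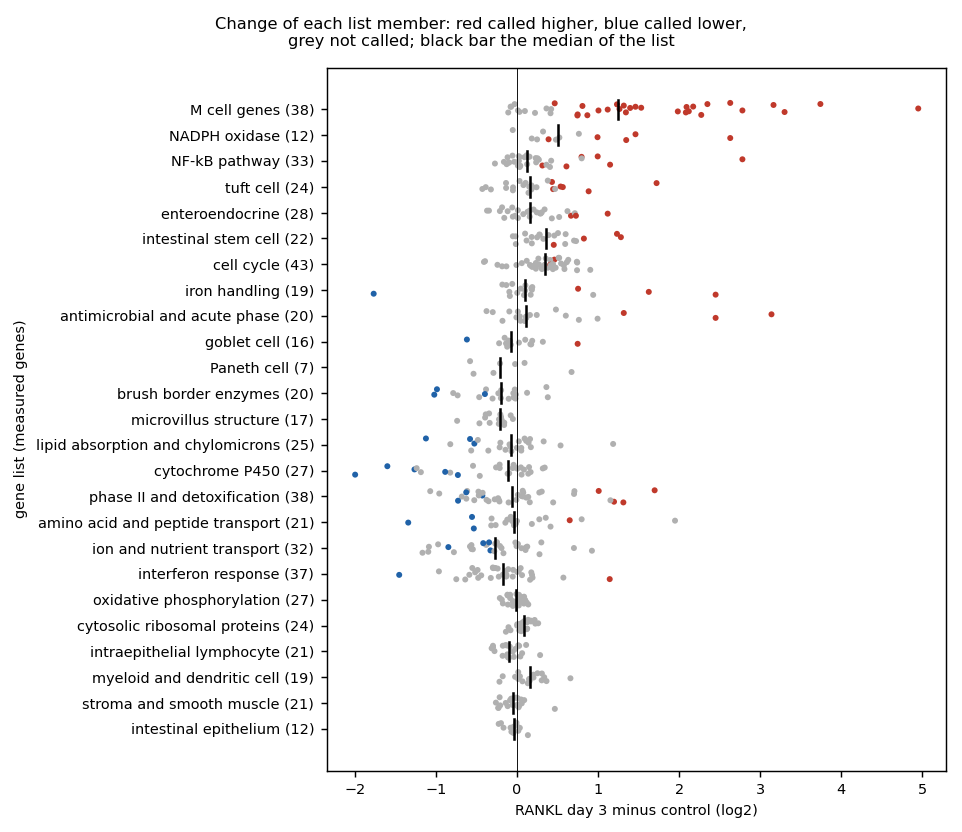
Change after 3 days of RANKL (log2, horizontal) of every measured gene of 25 lists, 1 list per line with its number of genes. Red points were called higher, blue points lower and grey points not at all, and a black bar marks the list's median. The M cell median, 1.25, stands apart from the others, and the cell cycle and stem cell medians lie at 0.34 and 0.36 with few calls.

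Several named falls were in genes of absorptive enterocytes, a few from each list. Drug- and steroid-oxidizing cytochrome P450 genes fell in 5 of 27 (18.5%, against 1.24% of all genes), and none rose. Cyp2c65 read 9.34, 9.79 and 10.76 in controls and 7.75, 8.53 and 7.62 on day 3, the largest fall of all genes at 2.00 ± 0.40 on the log2 scale (adjusted p = 0.0171, limma). The controls spread widely, and the call ended without day 3 replicates 1 (0.0542) or 3 (0.0884) or control replicate 3 (0.0765). Cyp3a25 read 10.82, 11.58 and 12.05 in controls and 9.67, 10.01 and 9.98 on day 3, and it fell by 1.60 ± 0.26. Cyp2c55, a close paralog and neighbour of Cyp2c65, fell by 1.26, a call that did not hold without day 3 replicates 2 (0.0586) or 3 (0.0884) or control replicate 3 (0.0767). Cyp2u1 fell by 0.89, and Cyp3a44 by 0.73, a call that did not hold without any 1 of the 6 arrays (0.0502 to 0.117). The count was 3 without day 3 replicate 1 and 2 without day 3 replicate 3 or control replicate 3.

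Conjugating and ester-splitting enzymes changed in both directions, 4 of 38 higher (10.5%) and 3 lower (7.89%), against 1.72% and 1.24% of all genes. Leaving out 1 of the 6 arrays gave 1 to 4 rises and 0 to 4 falls, the fewest rises without day 3 replicate 2 or control replicate 1 and no fall without control replicate 3. The glutathione transferase gene Gsta3 rose by 1.31, the carboxylesterase gene Ces1g by 1.20 and Gclc, the rate-limiting enzyme of glutathione synthesis, by 1.01. The neighbouring carboxylesterase genes Ces2b and Ces2e fell by 0.73 and 0.63, and the glutathione transferase gene Gstt1 by 0.43. The list's remaining rise was that of Akr1b8, given above with its leave-outs. Of these 7 calls each ended without at least 1 array. Gsta3 was lost without control replicate 3 (0.0585), Ces2b without control replicate 3 (0.0505) and Ces1g without day 3 replicate 2 (0.07) or control replicates 1 (0.0598) or 2 (0.0685). Gclc was lost without day 3 replicates 2 (0.063) or 3 (0.0782) or control replicates 1 (0.0509) or 3 (0.0778), and Ces2e without day 3 replicate 2 (0.0619) or control replicates 2 (0.0539) or 3 (0.0675). Gstt1 was lost without day 3 replicates 1 (0.0902) or 3 (0.136) or any 1 control array (0.0715 to 0.096). Outside the list, Gstk1, a peroxisomal and mitochondrial glutathione transferase gene, read 10.62 to 10.98 in controls and 9.54 to 9.68 on day 3, and fell by 1.15 ± 0.17.

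Lipid genes fell in small numbers. Scd1, the desaturase that makes oleate, read 8.73, 7.77 and 8.71 in controls and 6.86, 6.38 and 6.26 on day 3. Control replicate 2 was the lowest control and still exceeded every day 3 array, and Scd1 fell by 1.90 ± 0.32 (adjusted p = 0.00624, limma). Of the other 28 genes of sterol and fatty acid synthesis only Dhcr7 was called (-0.52), a call that did not hold without day 3 replicates 1 (0.0559) or 2 (0.103) or control replicates 1 (0.0906) or 3 (0.0725). Tm7sf2, a sterol reductase gene, fell by 1.05.

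Of 25 genes of fat absorption 3 fell, with 0 falls without day 3 replicate 3 or control replicate 3 and 1 without any other 1 of the 6 arrays. The pancreatic lipase relative Pnliprp2 fell by 1.12 (adjusted p = 0.0497), a call that did not hold in 16 of 24 settings, the sterol exporter gene Abcg5 by 0.58 and the lipid droplet gene Plin2 by 0.53 (0.0557 with the replicate block). Pnliprp2 was lost without any 1 day 3 array (0.0584 to 0.219), control replicates 1 (0.169) or 3 (0.132), day 1 replicates 1 (0.0592) or 3 (0.0644), day 2 replicates 1 (0.0543) or 2 (0.0563) or day 4 replicates 1 (0.0595) or 2 (0.0634). Abcg5 was lost without day 3 replicates 1 (0.0968) or 3 (0.0801) or control replicates 2 (0.096) or 3 (0.11). Plin2 was lost without day 3 replicates 2 (0.0667) or 3 (0.185), any 1 control array (0.0503 to 0.16), day 1 replicates 1 (0.0522) or 3 (0.0593), any 1 RANKL day 2 array (0.0569 to 0.0631) or day 4 replicate 1 (0.0692). The peroxisomal enzyme gene Ehhadh, the only call among 20 genes of fatty acid oxidation, fell by 0.65, a call that did not hold with the replicate block (0.0549), without any 1 of the 6 arrays (0.0541 to 0.196) and without day 1 replicate 3 (0.0546), day 2 replicate 1 (0.0617) or day 4 replicate 1 (0.0573). The chylomicron genes Mttp (0.09) and Apoa4 (0.54, adjusted p = 0.0702) and the fatty acid binding gene Fabp2 (0.05) were not called.

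Digestive enzymes of the brush border fell in 3 of 20 (15.0%, against 1.24% of all genes). The median was -0.20, and 3 of 20 lay above 0. Mep1a, which encodes the metalloprotease meprin alpha, read 12.52, 12.81 and 12.93 in controls and 12.19, 11.27 and 11.84 on day 3, a fall of 0.99 ± 0.23 (adjusted p = 0.0352, limma). The call ended without day 3 replicates 2 (0.127) or 3 (0.105), control replicates 2 (0.0986) or 3 (0.131), day 2 replicate 1 (0.0514) or day 4 replicate 1 (0.0515). Cndp1, a dipeptidase gene, read 8.83, 9.07 and 9.44 in controls and 8.18, 7.94 and 8.16 on day 3. Its groups did not overlap, and it fell by 1.02. The peptidase gene Naaladl1 fell by 0.40 from 13.43 to 13.47, a call that did not hold without day 3 replicates 2 (0.112) or 3 (0.0701) or any 1 control array (0.0677 to 0.0944).

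The defining disaccharidase and peptidase genes were not called. Sis changed by -0.20, Anpep by -0.04 and the alkaline phosphatase gene Alpi by -0.47 (adjusted p = 0.0823). Without RANKL day 3 replicate 2 or 3 or control replicate 2 or 3 the list held 1 fall. No gene of 17 in microvillus structure was called, although all 17 lay below 0 (53.1% of all genes did) and 10 read lower on all 3 day 3 arrays than on every control (9.90% of all genes did), with a median of -0.21. With the replicate block 2 of the 17 fell.

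Transporter genes were called in both directions. The proline and imino acid transporter genes Slc6a20a and Slc6a20b, neighbours and paralogs, both fell. Slc6a20b read 8.18, 8.04 and 8.20 in controls and 6.88, 6.82 and 6.70 on day 3, a tight fall of 1.34 ± 0.11 (adjusted p = 1.89e-05, limma). Slc6a20a fell by 0.53, a call that did not hold without any 1 day 3 array (0.0612 to 0.112) or control replicates 2 (0.0901) or 3 (0.136).

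The cystine transporter gene Slc7a9 fell by 0.55, a call that did not hold without day 3 replicates 2 (0.0988) or 3 (0.0741) or control replicates 2 (0.0813) or 3 (0.0897). The glutamine transporter gene Slc38a1 rose by 0.65, a call that did not hold without day 3 replicate 3 (0.0819) or control replicates 2 (0.0503) or 3 (0.0637). No other gene of 21 in this list was called, and the list held 1 fall without day 3 replicate 2 or 3 or control replicate 2 or 3. The share of the list that rose was 4.76% and the share that fell 14.3%, against 1.72% and 1.24% of all genes. Of 32 ion and nutrient transporters 4 fell (12.5%, against 1.24% of all genes) and none rose (median -0.27). The largest fall among them was that of the phosphate and urate transporter gene Slc17a4 (-0.85). Its limma adjusted p was 0.0643 and 0.0805 without day 3 replicates 2 and 3 and 0.0897 without control replicate 3. No gene of the list was called without day 3 replicate 2 or 3 or control replicate 3, 2 were without day 3 replicate 1, 1 was without control replicate 2, and 7 fell with the replicate block. The glucose transporter gene Slc5a1 (-0.14) and the peptide transporter gene Slc15a1 (-0.14) overlapped between the groups.

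Arrays within each group differed in genes that vary along the length of the intestine. Lct, the lactase gene, read 8.07, 10.46 and 10.73 in controls and 8.55, 10.86 and 8.70 on day 3, and Fabp1 read 8.72, 9.68 and 10.28 in controls and 9.55, 11.81 and 10.86. Neither was called (-0.38 and 1.19), and the arrays of the groups overlapped for both. Over the 24 other settings the change of Lct was -1.23 to 0.11 and that of Fabp1 0.65 to 1.78. Of 11 segment genes, which averaged 10.21 to 10.78 in controls and 10.43 to 10.61 on day 3, only Osr2 was called (-0.56). That call ended without day 3 replicates 2 (0.0585) or 3 (0.0634) or control replicate 1 (0.0509). The part of the sampled segment in the falls was not tested.

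Other large falls belonged to no single group. Gsdmc2, a gasdermin gene, read 7.14, 7.45 and 7.35 in controls and 5.98, 5.75 and 5.84 on day 3, a fall of 1.46 ± 0.11 (adjusted p = 9.23e-06, limma). No other gene of 17 gasdermin and inflammasome genes was called. Tgfbi, a secreted matrix protein, read 11.65, 11.74 and 11.68 in controls and 10.87, 10.30 and 10.57 on day 3 and fell by 1.11 ± 0.12. Plcd1, a phospholipase C gene, fell by 1.08, and Cldn8, a claudin of tight junctions, by 1.09. The complement gene C2 fell by 1.17.

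Pla2g4c, a cytosolic phospholipase A2 gene, fell by 1.41, a call that did not hold without day 3 replicates 2 (0.0549) or 3 (0.0625) or control replicates 1 (0.0525) or 2 (0.0506). Dio1, which activates thyroid hormone, fell by 1.05, a call that did not hold without day 3 replicates 2 (0.103) or 3 (0.0709) or control replicates 2 (0.0928) or 3 (0.104). Mettl7b fell by 1.30 and Ocm, which encodes the calcium-binding protein oncomodulin, by 1.19. The call of Mettl7b ended without any 1 of the 6 arrays (0.0511 to 0.135) or without day 2 replicate 1 (0.0521), and that of Ocm without day 3 replicate 2 (0.0791) or any 1 control array (0.0509 to 0.0934). A gene named as an olfactory receptor, Olfr165, fell by 1.22, a call that did not hold without day 3 replicate 3 (0.0861) or control replicates 2 (0.0578) or 3 (0.0724).

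Receptors for cytokines that act on the epithelium changed in opposite directions. Ifnlr1, the epithelial receptor chain for interferon lambda, read 8.64, 8.64 and 8.90 in controls and 7.4, 7.22 and 7.21 on day 3. The arrays of each group were close together, and Ifnlr1 fell by 1.45 ± 0.14 (adjusted p = 3.86e-05, limma). Ifnar2, a chain of the receptor for type I interferons, read 7.57, 7.61 and 7.42 in controls and 8.69, 8.58 and 8.76 on day 3, a rise of 1.14 ± 0.13 (2.21-fold). Il22ra1, the receptor for interleukin 22 and the neighbour of Ifnlr1 on chromosome 4, fell by 0.82 (0.84 with its other probe set), a call that did not hold without day 3 replicates 2 (0.0667) or 3 (0.0828) or control replicate 3 (0.0724).

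Il17rc, an interleukin 17 receptor chain, fell by 0.34, a call that did not hold without day 3 replicates 2 (0.131) or 3 (0.112) or any 1 control array (0.0542 to 0.113). None of 22 interferon-stimulated genes was called (median -0.14). Il15, a cytokine that maintains intraepithelial lymphocytes and was chosen after its values were seen, read 8.85, 8.94 and 9.22 in controls and 8.03, 8.22 and 7.99 on day 3, a fall of 0.92 ± 0.15. The nuclear receptor gene Nr1d1, a repressor in the circadian clock, fell by 0.92 ± 0.14, from 11.51 to 11.62 in controls to 10.28 to 10.86 on day 3, and no other gene of 17 clock genes was called. Thra, the thyroid hormone receptor gene that overlaps Nr1d1 on the opposite strand, was chosen after its values were seen and fell by 0.64.

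Markers of other cells that a detached epithelium can hold showed few calls. Of 21 genes of intraepithelial lymphocytes none was called (median -0.10), and their mean level was 8.10 to 8.28 in controls and 7.95 to 8.30 on day 3. Cd3e changed by -0.31 (adjusted p = 0.404) and Cd8a by -0.30. None of 21 stromal and smooth muscle genes was called, although Acta2 ranged from 7.88 to 9.43 in controls and from 7.61 to 9.60 on day 3. Of 11 B and plasma cell genes Blnk, an adaptor of the B cell receptor, rose by 1.16 ± 0.13, from 7.84 to 7.90 in controls to 8.96 to 9.09 on day 3, while Cd79a stayed at 5.77 to 6.43 on the 6 arrays (0.02). None of 27 genes of oxidative phosphorylation and none of 24 ribosomal protein genes was called, with medians of -0.01 and 0.08.

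Called genes were placed in RefSeq gene order, which was possible for 589 of the 590. There were 24 runs of neighbouring measured genes called in the same direction, 15 higher and 9 lower, with 50 genes in all. They included Wfdc17 with Wfdc18, the 3 Clca3 genes, Tmem176a with Tmem176b, Trpm5 with Kcnq1, Cyp2c55 with Cyp2c65, Ces2b with Ces2e, Slc6a20a with Slc6a20b and Ifnlr1 with Il22ra1. Most of these named pairs are close paralogs, and the part of probes that read more than 1 member was not tested. Other runs joined genes that are not paralogs, such as Sox8 with Lmf1, Prnp with Rassf2 and Ncf1 with Gtf2i. The calls of Lmf1, Gtf2i and Kcnq1 each ended without at least 1 of the 6 arrays, as did those of Ncf1 and Trpm5. How many runs the shares of calls alone would give was not tested. The pairs Ifnlr1 with Il22ra1 and Trpm5 with Kcnq1 are not near-identical.

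Few genes were called between day 3 and the other RANKL days. Against the mean of RANKL days 1, 2 and 4, 3 genes were called (0.015%), Gp2, Hamp and Wfdc18, all higher on day 3. An unadjusted p under 0.05 was found in 1059 genes (5.31%). Against RANKL day 2 no gene was called by limma after adjustment, and 961 (4.82%) had an unadjusted p under 0.05. With weights per array the counts were 37 and 13.

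For Gp2 the difference from the other RANKL days was 2.60 (adjusted p = 0.00289, limma), for Hamp 1.5 and for Wfdc18 1.38. Hamp read 5.80 to 5.96 on RANKL day 1, 7.68 to 8.0 on day 2, 7.65 to 8.54 on day 3 and 5.98 to 6.54 on day 4. The day 2 and day 3 values of Hamp overlapped, and days 1 and 4 lay below both. Wfdc18 read 6.30 to 6.46 on day 1, 7.57 to 7.81 on day 2, 8.0 to 8.87 on day 3 and 6.56 to 7.02 on day 4, without overlap between day 3 and any other day. Gp2 read 5.80 to 6.24 on day 1, 9.59 to 10.00 on day 2, 10.12 to 11.49 on day 3 and 8.95 to 10.17 on day 4, so day 3 replicate 1 lay below the highest day 4 array. Without RANKL day 3 replicate 2 only 1 gene was called in this comparison, and without day 3 replicate 1 there were 6.

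The changes from control on days 1, 2, 3 and 4, which share the same control arrays, were 4.57, 4.67, 3.74 and 2.46 for Spib, 0.18, 1.13, 1.63 and 1.16 for Tfrc and 0.22, 0.72, 1.72 and 2.51 for Rgs13. For Cyp2c65 they were -2.24, -2.06, -2.0 and 0.05. The group mean of Spib was lower on day 3 than on days 1 and 2, that of Tfrc was the highest of the 4 days, and that of Cyp2c65 lay near control on day 4. None of these genes was called between day 3 and day 2.

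**Figure D4:**
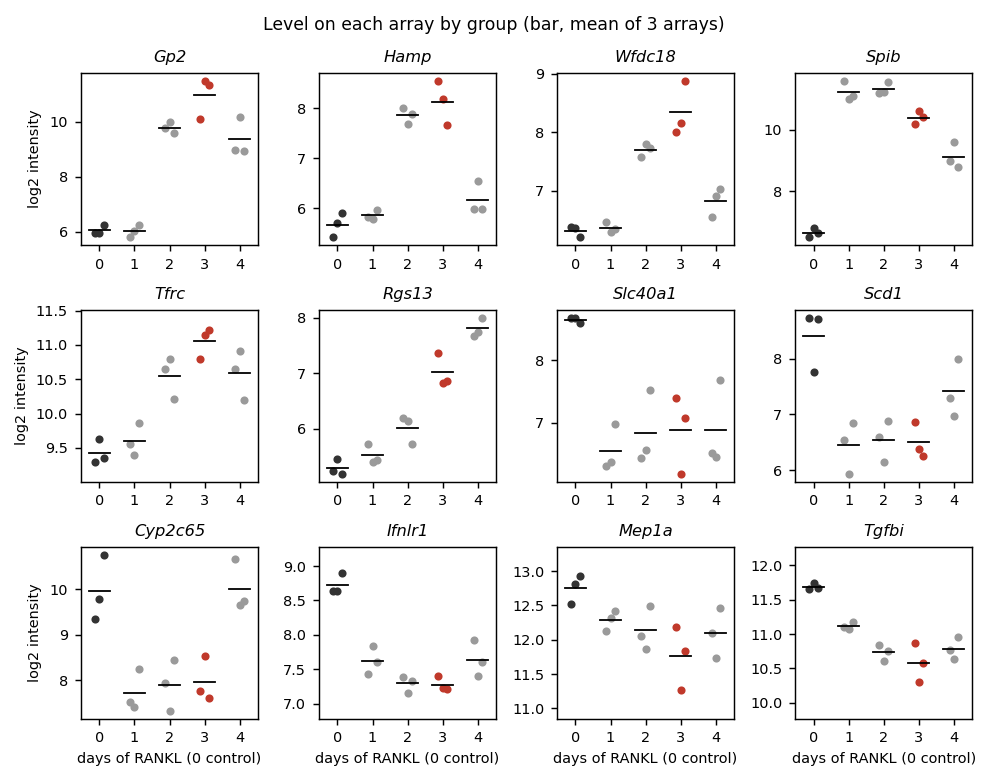
Log2 intensity on each array for 12 genes by days of RANKL, with 0 for the controls, red for day 3 and a bar for the mean of 3 arrays. Gp2, Hamp and Wfdc18 stand highest on day 3, Spib is higher on days 1 and 2, Rgs13 is higher on day 4, and Ifnlr1, Slc40a1 and Tgfbi are below control on all 4 days.

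The 3 genes called against the other RANKL days differed in their promoter letters. Their 250 bases before the start site, RefSeq build GRCm38.p6, are printed 5′ to 3′ on the gene's strand with any match to the 4 motifs above in capitals. Gp2 lies at chr7:119459273-119459522 on the minus strand, Hamp at chr7:30944030-30944279 on the minus strand and Wfdc18 at chr11:83708754-83709003 on the plus strand.
Gp2: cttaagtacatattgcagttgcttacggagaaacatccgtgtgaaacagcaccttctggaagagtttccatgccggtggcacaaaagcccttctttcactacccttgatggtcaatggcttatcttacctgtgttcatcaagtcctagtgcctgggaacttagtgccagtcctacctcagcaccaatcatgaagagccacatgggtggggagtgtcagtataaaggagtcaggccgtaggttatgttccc
Hamp: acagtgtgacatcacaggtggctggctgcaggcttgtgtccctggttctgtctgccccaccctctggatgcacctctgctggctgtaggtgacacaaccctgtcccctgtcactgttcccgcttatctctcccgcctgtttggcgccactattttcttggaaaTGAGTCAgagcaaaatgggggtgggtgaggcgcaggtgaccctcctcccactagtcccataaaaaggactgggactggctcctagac
Wfdc18: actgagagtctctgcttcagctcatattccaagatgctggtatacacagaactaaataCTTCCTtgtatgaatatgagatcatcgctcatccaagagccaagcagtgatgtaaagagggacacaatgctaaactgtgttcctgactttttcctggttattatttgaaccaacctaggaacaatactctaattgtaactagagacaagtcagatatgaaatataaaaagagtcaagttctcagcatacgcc
The window of Gp2 held none of the 4 motifs. That of Hamp held 1 AP-1 match, 87 bases before the start site, and that of Wfdc18 held 1 Ets core on the opposite strand, 192 bases before the start site. AP-1 matches were present in 6.04% and Ets cores in 28.4% of the promoters of all measured genes, and nothing is said by an absent match about the binding of a factor elsewhere.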

How the data were processed

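Total RNA of detached small intestinal epithelium was labelled with biotin and hybridised to 15 Affymetrix gene arrays. The deposited values are intensity per probe set on a linear scale, 25.95 to 24106.7, already summarised by the authors, whose normalization is not given in the sources used here; the submitters' processing notes name build mm9. Of 28853 probe sets, 21789 had 1 gene symbol. Log2 values were quantile normalized because array medians ranged over 0.18, and each of 19938 genes was represented by its brightest probe set on average over the 15 arrays. All 5 groups were fitted with limma 3.58.1 in R 4.3.3 (lmFit, eBayes, Benjamini-Hochberg adjustment over all genes, threshold 0.05, 10 residual degrees of freedom). With 3 arrays in a group, their number limits the precision.

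Day 3 was compared with control, with the mean of RANKL days 1, 2 and 4, and with RANKL day 2. Tested on simulated data for the comparison with control (19938 genes), the fit recovered 60% of changes of 0.5, 96% of changes of 1 and 100% of changes of 2, and 7.06% of its calls were false. Deviations from the group means of same-numbered arrays of the 2 groups correlated at 0.374, 0.366 and 0.124, all above 0.1. Differently numbered arrays gave -0.45 to 0.129, a range that holds the lowest of the same-numbered values. The replicate number was also fitted as a block. The numbers come from the labels' titles, which do not state that arrays are paired. The alternatives were the deposited scale, median centring, an offset of 16, a filter on dim genes, the mean of a gene's probe sets, the 2 groups alone, a trended robust prior, array weights, the block and leaving out each array.

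The members and the gene lists were chosen with earlier results of these data known. Named genes were the 30 largest rises and 20 largest falls that were called without overlap, up to 6 called genes per list and direction, the first 4 genes of each list, the 8 largest of the other comparisons, genes with wide spread, and a fixed set of M cell, NF-kB and iron genes. Further list members given with values, such as Tnfaip3, Saa3, Mmp7 and Sox9, lie outside this rule and are not marked. Tmem176a, Tmem176b, Clca3b, Il15 and Thra, also outside it, are marked as chosen after their values were seen.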

Additional observations from a re-analysis of the deposited data

Results flagged for a closer look

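For 3 genes day 3 differed from the mean of RANKL days 1, 2 and 4 by a test of that difference (limma, adjusted p = 0.00289 for each). None of them was called against RANKL day 2. Without day 3 replicate 2 only 1 gene was called against that mean. The difference was 2.60 on the log2 scale for Gp2, 1.5 for Hamp and 1.38 for Wfdc18, each higher on all 3 day 3 arrays than the mean of the other days. Among 5443 probe sets with no listed gene symbol, which no comparison above used, 33 (0.606%) were called on day 3, 21 of them higher than control, against 2.96% of the named genes. The 33 come from a fit and adjustment over all 28853 probe sets. The 2.96% comes from 1 probe set per gene, the brightest, so the 2 shares are not strictly alike.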

How the results depend on the processing

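The number of genes called against control, 590, was 378 on the deposited scale, 257 with each array centred on its median and 1322 with array weights, whose fit stopped before it converged. It lay between 524 and 661 with an offset of 16, without the dim genes, with the mean of probe sets, with a trended robust prior and with the 2 groups alone. Leaving out 1 array gave 236 to 1188. With the replicate number as a block, which assumes a pairing that the labels do not state, it was 712. The largest changes in list counts with the block are given beside the lists, the steroid dehydrogenases went from 0 to 2 falls, and each further list changed by at most 1 call in a direction. The 3 genes called against the other RANKL days became 5 with the groups compared alone, 37 with array weights and 1 to 6 when 1 array was left out. Against RANKL day 2 the count of 0 became 13 with array weights and was 0 in the other settings run. No called gene named by the rule above reversed its direction in any setting run, whereas small changes that were not called could change sign. Reversal was not checked for called genes named outside that rule, such as Thra, Kcnq1, Lmf1 and Gtf2i. The causes of these differences were not tested. The 3 arrays per group, low signal near the floor and paralogs that share probes limit what single genes show.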
